A study of Mus musculus with 6 samples.

Results

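RNA-seq values of 10 genes of fat cell formation were compared between 3 control libraries and 3 libraries of Tet1/Tet2 siRNA-treated bone marrow mesenchymal stem cells (BMMSCs). The 10 genes were taken by their symbols from the 36870 distinct symbols of the expression table, and all 10 were among the 13266 genes tested. They are the transcriptional regulators Pparg, Cebpa, Cebpb, Cebpd and Zfp423, the fatty acid carrier Fabp4, the lipid-droplet coat genes Plin1 and Plin2, and the secreted proteins Adipoq and Cfd. The comparison asks what happened, after the knockdown, to the genes of the adipocyte lineage, the alternative to bone in marrow stromal cells.

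All cells came from C57BL/6 mice and were grown as the cells of flushed femurs and tibias that stick to plastic. The siTet1/Tet2 group received siRNAs against both genes, and the control group received a non-targeting siRNA according to the labels, whereas the RNA-sequencing methods call it vehicle. The labels give passage 2 for all 6 samples and the methods give passage 1. Neither source states an adipogenic induction of the sequenced cells, nor whether replicates came from separate cultures or animals, so p-values measure the spread between these samples. Abundance is given as RPKM, a read number corrected for gene length and for library size, and fold changes from limma are differences of log2(RPKM + 1), which understates changes of low genes. The table holds no read totals. The depth was estimated from the steps between low values as 32400000 to 38500000 reads per library, with replicates of a group correlating at r between 0.992 and 0.997.

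In adipogenesis, Cebpb and Cebpd are induced early and switch on Pparg and Cebpa, which then maintain each other and drive the genes of lipid uptake, storage and secretion. Pparg is a nuclear receptor that binds DNA with the retinoid X receptor, and Zfp423 is a zinc finger protein that marks commitment to the fat lineage. In marrow, stromal progenitors can give rise to either adipocytes or osteoblasts. Several of these genes, including Cebpa, Cebpb, Pparg, Fabp4 and Plin2, are also expressed by macrophages, which adhere to plastic as well.

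The knockdown was checked first. Tet2 had 2.57, 4.08 and 3.71 RPKM in the control libraries against 0.358, 0.238 and 0.202 RPKM after the siRNAs (log2 fold change -1.80, SE 0.13, limma adjusted p = 2.88e-05). Tet1 was below the filter for testing, with 0.032, 0.098 and 0.05 RPKM in the control libraries against 0.001, 0.01 and 0.001 RPKM. Both targeted genes were therefore lower in every siRNA library than in any control library. Tet3, which was not targeted, had 7.03 ± 1.55 RPKM (SD, n = 3) in the control group and 7.66 ± 0.767 RPKM after the siRNAs (limma adjusted p = 0.508).

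The 10 genes moved in both directions. At an adjusted p under 0.05, 6 rose (Cebpa, Fabp4, Plin1, Adipoq, Plin2 and Cebpb), 3 fell (Pparg, Cebpd and Zfp423) and Cfd did not pass. Among all genes tested, 14.7% were called higher and 29.8% were called lower. After quantile normalization, 3598 genes were called higher and 2635 lower, which is 27.1% and 19.9% of the number 13266. The filter followed that normalization, so the number of genes tested there can differ. Of the 10 genes, 6 were then higher and 2 lower. Zfp423 passed the filter on its mean over the 6 libraries only through the control group, where it is high, so its call depends on that group. The siRNA and control libraries did not overlap in 6 genes that were higher and 3 that were lower, against 19.8% and 35.9% of all genes tested. The study calls a gene altered when its unadjusted p is under 0.05 and it changes more than 2-fold, and by that rule the limma fit gave 2 higher, Cebpa and Fabp4, and 0 lower, where 0.95% and 5.63% of all genes tested were altered. Without the fold criterion, 7 of the 10 were higher and 3 lower at an unadjusted p under 0.05, against 17.7% and 34.6% of all genes tested. Without siTet1/Tet2 replicate 1, 4 of the 10 were altered and higher, since Plin1 and Adipoq lie close to the fold threshold on this scale. With a pseudocount of 0.01, or from the ratio of the group mean RPKM, 4 were altered and higher (Plin1 and Adipoq joined) and 1, Zfp423, was altered and lower. The share of all genes altered in these alternatives was not counted, so these shifts are not read as a result about the 10 genes. The median log2 fold change was 0.36 over the 10 genes and -0.09 over all genes tested.

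**Figure D1:**
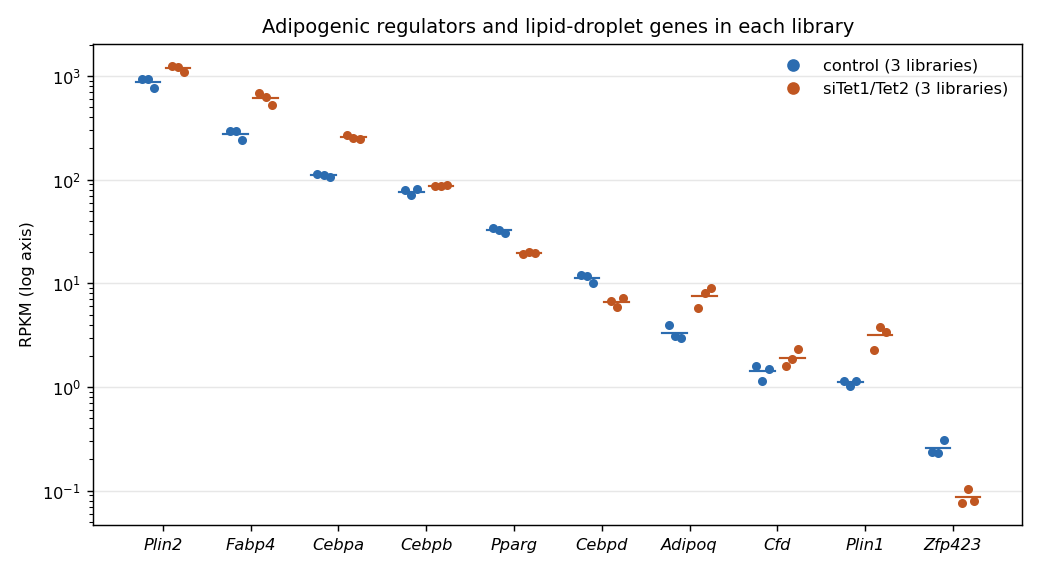
RPKM of the 10 genes in each library on a log axis, with control libraries in blue, siTet1/Tet2 libraries in orange and a line at each group mean (n = 3 per group). The genes span from 0.0867 RPKM (Zfp423, siTet1/Tet2 mean) to 1187 RPKM (Plin2, siTet1/Tet2 mean), and the groups overlap for Cfd alone.

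The regulators moved in both directions. Pparg had 34.0, 33.0 and 30.6 RPKM in the control libraries and 19.1, 20.2 and 19.8 RPKM in the siTet1/Tet2 libraries. The groups were well apart, and the mean was 1.65-fold lower after the siRNAs (32.5 ± 1.75 to 19.7 ± 0.591 RPKM, SD, n = 3). This fall gave a log2 fold change of -0.69 with an SE of 0.06 and a limma adjusted p of 8.32e-05. Pparg spans chr6:115360951-115490399 on the plus strand of GRCm38, and the gene-level value does not separate transcripts from its alternative starts. In the order of all genes tested, it moved from rank 2549 to rank 3722.

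Cebpa, the partner of Pparg in adipocytes and also a factor of myeloid cells, moved the other way. Its level was 114.2, 110.9 and 105.6 RPKM in the control libraries and 268.4, 252.8 and 248.4 RPKM after the siRNAs. The lowest siRNA library was above the highest control library by a wide margin. The mean rose 2.33-fold, from 110.2 ± 4.33 to 256.5 ± 10.5 RPKM (SD, n = 3), and the log2 fold change was 1.21 (SE 0.06, limma adjusted p = 5.46e-06). Cebpa thereby moved from rank 619 to rank 188 among all genes tested. It is a gene of 1 exon at chr7:35119293-35121928 on the plus strand, and an annotated antisense RNA, Gm45091, overlaps it.

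The early regulators Cebpb and Cebpd did not move together. Cebpd had 12.0, 11.9 and 10.2 RPKM in the control libraries and 6.76, 5.89 and 7.26 RPKM in the siTet1/Tet2 libraries, with no overlap. Its mean fell 1.71-fold, from 11.3 ± 1.03 to 6.64 ± 0.692 RPKM (log2 fold change -0.69, SE 0.10, limma adjusted p = 0.000808). Cebpb had 78.9, 70.6 and 80.7 RPKM in the control libraries and 86.7, 87.4 and 88.3 RPKM after the siRNAs. The siRNA libraries were close to each other and above all controls, and the mean was 1.14-fold higher (log2 fold change 0.19, SE 0.07, limma adjusted p = 0.0451). That call is at the threshold. Without control replicate 1 or 2 the adjusted p from limma was 0.0546 or 0.167, and without siTet1/Tet2 replicate 1, 2 or 3 it was 0.107, 0.122 or 0.108. Both genes overlap a gene on the other strand, and strand use in the counting is not given in the sources used here, so reads of the overlapping stretches cannot be told apart. Tmem189, which overlaps Cebpb, had a log2 fold change of 0.02 (limma adjusted p = 0.848), and Spidr, which overlaps Cebpd, one of -0.27 (limma adjusted p = 0.0395).

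Zfp423 was the lowest of the 10 genes. It had 0.237, 0.23 and 0.308 RPKM in the control libraries and 0.076, 0.104 and 0.08 RPKM in the siTet1/Tet2 libraries. The groups did not overlap, and the mean RPKM was 2.98-fold lower, while the log2 fold change on log2(RPKM + 1) was only -0.21 (SE 0.06, limma adjusted p = 0.0189). These values stand for an estimated 37.5 to 49.0 reads per control library and 13.9 to 19.6 reads per siRNA library, taken with the longest annotated transcript. Without siTet1/Tet2 replicate 1 the limma adjusted p was 0.0637, and after quantile normalization it was 0.082.

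**Figure D2:**
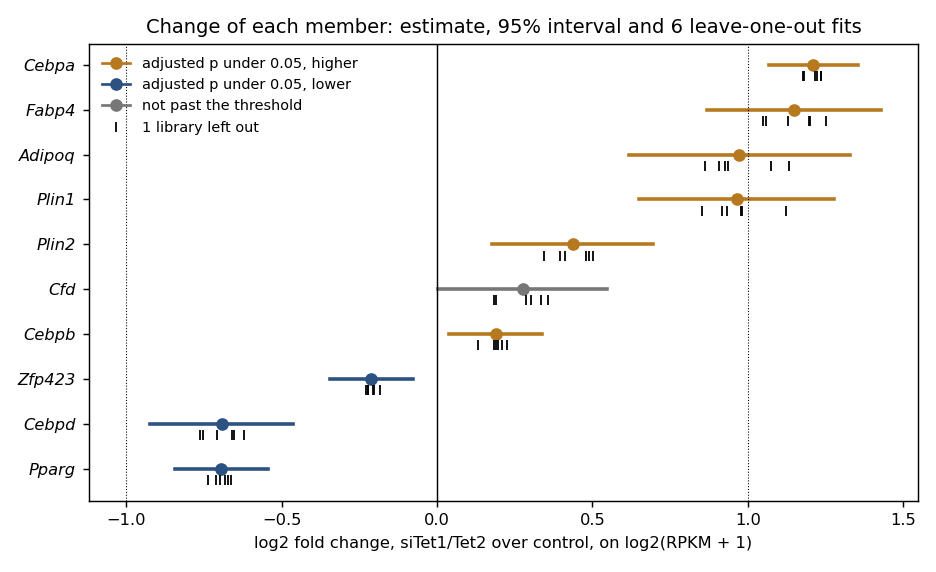
Log2 fold change of each of the 10 genes on log2(RPKM + 1), siTet1/Tet2 over control, with the 95% interval from limma as a bar and short ticks for the fits that each leave out 1 library. Cebpa and Fabp4 lie beyond the dotted line at a fold change of 2, Plin1 and Adipoq lie just inside it, and the lower genes Pparg and Cebpd share a log2 fold change of -0.69.

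The ratio of genes within a library does not depend on the scaling of that library. The Cebpa to Pparg ratio was 3.36, 3.36 and 3.45 in the control libraries and 14.1, 12.5 and 12.5 in the siTet1/Tet2 libraries. The Cebpb to Cebpd ratio went from 6.82 ± 1.02 to 13.3 ± 1.39 (SD, n = 3). The ratio of Pparg to Runx2, the main osteoblast regulator, went from 20.6 ± 7.58 to 148.7 ± 30.3. Pparg itself was lower in RPKM after the siRNAs, so the rise of this ratio came from its denominator. Runx2 fell from 1.70 ± 0.480 to 0.136 ± 0.0286 RPKM (log2 fold change -1.23, limma adjusted p = 0.000133). At that low level the ratio rests on few Runx2 reads. In bulk RNA, Pparg and Runx2 need not be expressed in the same cells, and a shift between the fat and bone lineages was not tested. In each of these 3 ratios the exact permutation p (two-sided) was 0.1, the smallest that 3 against 3 libraries can give, and 0.117 after Benjamini-Hochberg adjustment over the 14 ratios computed.

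**Figure D3:**
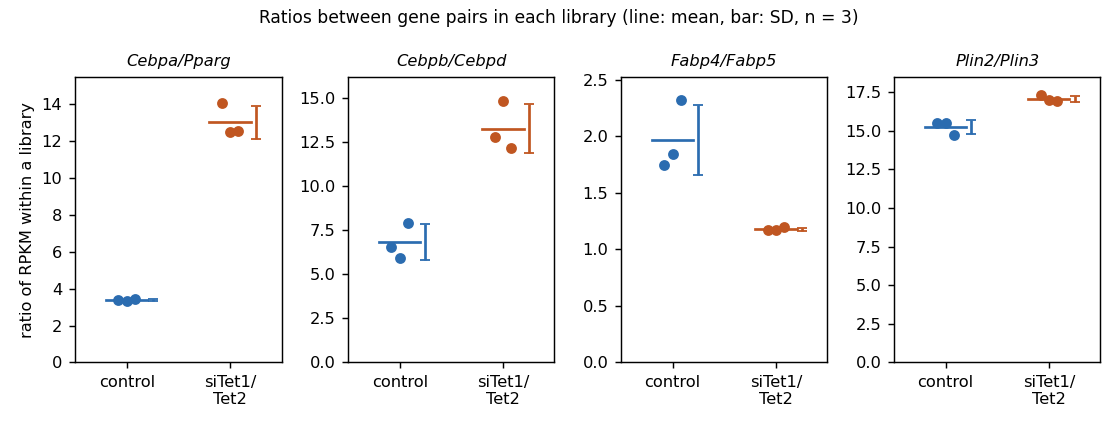
Ratios of RPKM between gene pairs within each library, control in blue and siTet1/Tet2 in orange, with the mean as a line and the SD as a bar (n = 3), each axis starting at 0. Cebpa over Pparg lies near 3.4 in the controls and between 12.5 and 14.1 after the siRNAs, and Fabp4 over Fabp5 is lower after the siRNAs.

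The start sites of the regulators and of Adipoq differ in sequence, and 4 stretches are shown because they belong to genes that moved in opposite directions. Each is the 250 bases before a RefSeq start, on the strand of the gene, build GRCm38.p6, with no annotated exon inside. Capitals mark matches, on either strand, to the C/EBP core TTGCNNAA, the nuclear receptor core site AGGTCA, the CCAAT box or the TATA box, spelled TATAAA.
Pparg, start 3 of 3, chr6:115421816-115422065, plus strand: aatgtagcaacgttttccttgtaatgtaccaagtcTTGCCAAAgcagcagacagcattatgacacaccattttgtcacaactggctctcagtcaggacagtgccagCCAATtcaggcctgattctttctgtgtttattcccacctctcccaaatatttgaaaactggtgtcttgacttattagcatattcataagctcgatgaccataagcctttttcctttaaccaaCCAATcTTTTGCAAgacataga
Cebpa, chr7:35119043-35119292, plus strand: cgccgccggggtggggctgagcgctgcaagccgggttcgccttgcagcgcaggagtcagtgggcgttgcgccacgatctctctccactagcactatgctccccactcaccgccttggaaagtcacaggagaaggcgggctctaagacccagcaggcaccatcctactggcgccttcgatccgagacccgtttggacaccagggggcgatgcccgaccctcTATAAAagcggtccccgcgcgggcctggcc
Zfp423, start 1 of 2, chr8:87959596-87959845, minus strand: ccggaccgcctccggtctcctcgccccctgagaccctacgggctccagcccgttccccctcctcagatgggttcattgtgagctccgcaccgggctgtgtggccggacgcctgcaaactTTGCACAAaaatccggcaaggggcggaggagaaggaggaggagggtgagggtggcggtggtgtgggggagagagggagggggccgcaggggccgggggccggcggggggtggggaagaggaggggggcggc
Adipoq, chr16:23146286-23146535, plus strand: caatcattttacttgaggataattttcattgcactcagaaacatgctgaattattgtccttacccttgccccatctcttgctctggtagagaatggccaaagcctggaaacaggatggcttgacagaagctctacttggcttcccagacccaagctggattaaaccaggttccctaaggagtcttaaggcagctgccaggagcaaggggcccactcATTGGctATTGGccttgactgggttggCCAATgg

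The stretches of Pparg and Adipoq are poor in CpG, the pair of bases at which Tet proteins oxidise methylated cytosine, and those of Cebpa and Zfp423 are rich in it. The Cebpa stretch holds 22 CpGs, more than 85.2% of the 32851 promoter windows of the RefSeq table, and the Zfp423 stretch holds 18, more than 78.3%. Pparg start 3 has 2 CpGs, more than 18.8% of windows, and Adipoq has 0, where the median window has 6. Pparg starts 1 and 2, whose windows touch annotated exons, have 38 and 12 CpGs. Zfp423 start 2, with no annotated exon in its window, has 6 CpGs, and which start the cells used was not tested. CpG-rich and CpG-poor starts occurred both among genes that rose, with 41 CpGs for Cebpb and 1 for Plin1, and among genes that fell. Pparg start 3 and Plin1 each hold 2 matches to the C/EBP core, which 9.6% of all windows hold at least once, and Zfp423 start 1 holds 1. CCAAT occurs 3 times at Adipoq and 2 times at Pparg start 3, against 33.8% of windows with any match. The Cebpa stretch holds a TATAAA, as 12.4% of windows do, and AGGTCA, held by 14.0% of windows, occurs once each at Pparg starts 1 and 2, Plin2 and Zfp423 start 2, but in none of the 4 stretches printed. Such matches are letters in a sequence and were not measured as bound or methylated sites here. RefSeq starts in the table matched 8 of the 10 genes, all except Fabp4 and Cebpd.

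**Figure D4:**
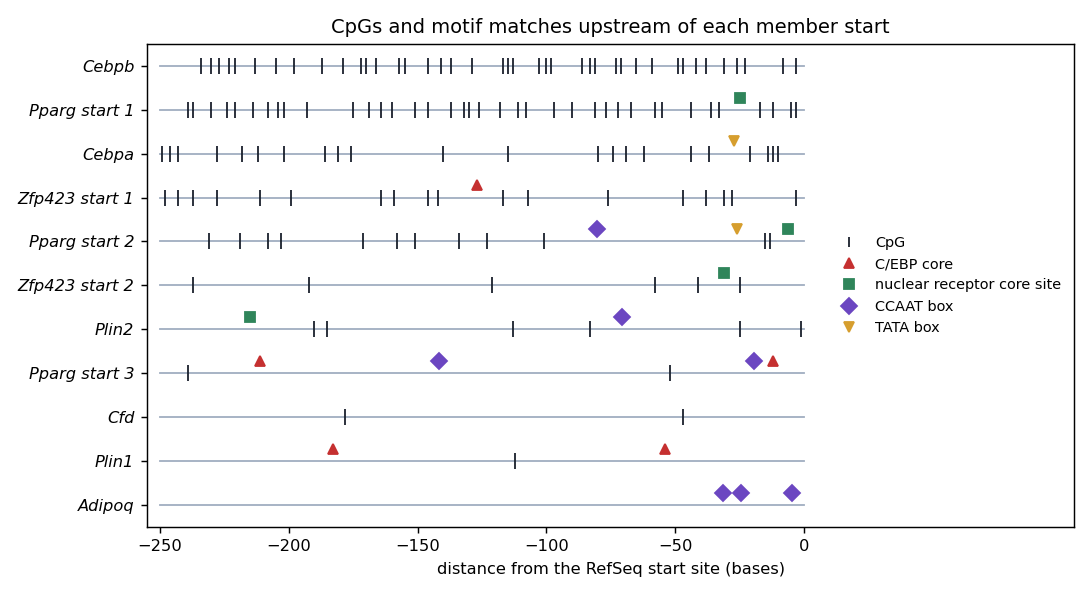
Positions of CpGs (black ticks) and motif matches (coloured symbols) in the 250 bases before each RefSeq start of 8 of the 10 genes, ordered by CpG count, with the distance to the start site in bases on the x axis. The rows run from Cebpb with 41 CpGs to Adipoq with none.

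The fatty acid carrier Fabp4 and the droplet coat genes Plin1 and Plin2 rose. Fabp4, a carrier of fatty acids in the cytoplasm of adipocytes and macrophages, had 294.9, 296.2 and 239.9 RPKM in the control libraries and 691.1, 626.7 and 529.4 RPKM in the siTet1/Tet2 libraries. Each siRNA library was above every control, and the mean rose 2.22-fold (277.0 ± 32.2 to 615.7 ± 81.4 RPKM, log2 fold change 1.15, SE 0.12, limma adjusted p = 0.000161). Its close relative Fabp5 rose more, from 144.2 ± 35.8 to 522.9 ± 74.4 RPKM (log2 fold change 1.87, limma adjusted p = 0.000117). The Fabp4 to Fabp5 ratio was accordingly lower after the siRNAs, at 1.18 ± 0.0148 against 1.97 ± 0.309 in the controls (exact permutation p = 0.1, adjusted 0.117).

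Plin2, the droplet coat protein of most cell types, was at rank 31 of all genes tested in the controls and rank 28 after the siRNAs. It had 939.1, 929.3 and 768.1 RPKM in the control libraries and 1252, 1229 and 1082 RPKM in the siTet1/Tet2 libraries, without overlap. The mean was 1.35-fold higher (878.8 ± 96.0 to 1187 ± 92.4 RPKM, log2 fold change 0.44, SE 0.11, limma adjusted p = 0.0141). This call was lost without siTet1/Tet2 replicate 1 (limma adjusted p = 0.0578) or replicate 2 (0.0654), and after quantile normalization the log2 fold change was 0.10 (limma adjusted p = 0.136). Plin1, the coat protein of the large droplets of fat cells, was far lower in level. Its values were 1.15, 1.02 and 1.15 RPKM in the control libraries and 2.30, 3.79 and 3.39 RPKM after the siRNAs. The siRNA libraries were all higher, by 2.86-fold in the mean (log2 fold change 0.96, SE 0.14, limma adjusted p = 0.000731), on an estimated 95.1 to 120.9 reads in the controls and 248.6 to 410.9 reads after the siRNAs. Plin2 still exceeded Plin1 by a ratio of 395.9 ± 128.9 in the siRNA libraries and of 798.7 ± 123.3 in the controls. Against Plin3, another widely expressed coat gene, Plin2 had a ratio of 15.2 ± 0.452 in the controls and 17.1 ± 0.195 after the siRNAs (exact permutation p = 0.1, adjusted 0.117).

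The secreted proteins were low. Adipoq, which encodes adiponectin, a hormone of fat cells, had 3.98, 3.12 and 2.95 RPKM in the control libraries and 5.81, 8.06 and 8.92 RPKM in the siTet1/Tet2 libraries. The groups did not overlap, and the mean rose 2.27-fold (3.35 ± 0.551 to 7.60 ± 1.60 RPKM, log2 fold change 0.97, SE 0.15, limma adjusted p = 0.00132). Cfd, which encodes the complement protease adipsin, had 1.61, 1.13 and 1.49 RPKM in the control libraries and 1.60, 1.87 and 2.31 RPKM after the siRNAs. Here the groups overlapped, and the difference did not pass the threshold (log2 fold change 0.28, SE 0.12, limma adjusted p = 0.0911). The adjusted p of Cfd was 0.0419 with median ratio scaling and 0.0037 after quantile normalization, both from limma.

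The rest of the adipogenic programme was taken from 5 lists of other genes, of which 64 of 72 were tested. Of these, 24 were higher, 13 were lower and 27 did not pass, with a median log2 fold change of 0.04. The 13 lower genes include 5 inhibitors of adipogenesis, so the counts and the median pool genes of opposite roles. Without control replicate 2, and likewise with median ratio scaling or quantile normalization, 8 were lower. Over all genes, 3168, 3106 and 2635 were called lower in these settings, in that order, against 3952 in the fit of all 6 libraries without rescaling. The counts from that fit, here and for each list below, are read against the same 14.7% higher and 29.8% lower of all genes tested.

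Among 15 tested transcription factors and partners, 2 rose and 4 fell, and the list had a median log2 fold change of 0.02. Rxra, the receptor that pairs with Pparg on DNA, rose from 32.9 ± 0.934 to 58.5 ± 1.10 RPKM (log2 fold change 0.81, limma adjusted p = 1.82e-05). Egr2, an early inducer of adipogenesis also known as Krox20, rose from 1.37 to 3.23 RPKM. The factors that fell were Klf4, from 7.94 to 2.72 RPKM, Ebf1, from 5.34 to 1.28 RPKM, Ebf2, from 0.740 to 0.0920 RPKM, and the brown fat regulator Prdm16, from 0.422 to 0.231 RPKM, which was named after its values were seen. Ebf2 passed the filter only through the control group, where it is high. Ebf1 and Ebf2 are factors of stromal progenitors that act upstream of Pparg. Nr1h3 (33.0 RPKM after the siRNAs against 32.7) and Srebf1 (21.1 against 20.7), regulators of sterol and fatty acid synthesis named here after their values were seen, did not pass the test.

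Of 9 tested inhibitors of adipogenesis, 5 fell and none rose, with a median log2 fold change of -0.22. The summed level of the list was 145.0 to 157.8 RPKM in the control libraries and 79.1 to 99.7 RPKM in the siTet1/Tet2 libraries. Ddit3, a C/EBP family member that blocks the binding of its relatives, fell from 55.6 ± 5.18 to 15.5 ± 1.13 RPKM (log2 fold change -1.78, limma adjusted p = 3.91e-06). Klf2, which represses Pparg, fell from 13.1 to 5.35 RPKM, and the Notch effector Hes1 fell from 9.66 to 3.44 RPKM. Wwtr1, with a log2 fold change of -1.17, and Gata2, with a log2 fold change of -0.18, were the other two that fell and were named after their values were seen. Dlk1, the classical preadipocyte inhibitor, was below the filter, with a mean of 0.0223 RPKM in the controls.

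Of 19 tested genes of fatty acid uptake and triglyceride synthesis, 11 rose and 2 fell, with a median log2 fold change of 0.26. The list summed to 2134 to 2448 RPKM in the control libraries and 3653 to 4134 RPKM after the siRNAs. Nearly all of that sum was Cd36, Lpl and Fabp5, so it says little about the other genes of the list. Fasn, Acaca, Gpam, Agpat2, Elovl6 and Dgat2, named after their values were seen, did not pass. Lpl, the lipase that frees fatty acids from lipoproteins, rose from 880.3 ± 113.8 to 1201 ± 40.8 RPKM (log2 fold change 0.46, limma adjusted p = 0.0113). Lpin1, an enzyme of triglyceride synthesis, rose from 3.43 to 7.41 RPKM, and Acly, which supplies acetyl-CoA, rose from 39.8 to 58.3 RPKM. The fatty acid receptor Cd36, singled out after its values were seen, rose from 1101 ± 101.4 to 1856 ± 190.0 RPKM (log2 fold change 0.75, limma adjusted p = 0.00124). Me1, which makes NADPH for fatty acid synthesis, fell from 10.2 to 6.04 RPKM, and the transporter Slc27a4 fell from 12.2 to 9.97 RPKM.

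Of 14 tested droplet coats, lipases and assembly factors, 8 rose and 2 fell, with a median log2 fold change of 0.31. Pnpla2, the first lipase of droplet breakdown, rose from 32.0 ± 1.12 to 60.0 ± 1.65 RPKM (log2 fold change 0.89, limma adjusted p = 1.50e-05). Cidec, which fuses droplets, rose from 1.13 to 4.06 RPKM, and the droplet enzyme Hsd17b11 rose from 53.4 to 75.5 RPKM. Fitm2, which helps droplets to form, fell from 4.14 to 3.14 RPKM, and the phospholipase Pla2g16 fell from 15.9 to 11.9 RPKM. Of 7 tested adipokines and secreted proteins, 3 rose and none fell. These were Angptl4, an inhibitor of lipoprotein lipase, from 9.08 to 20.6 RPKM, Nampt, from 47.8 to 57.2 RPKM, and Retn, from 0.176 to 0.495 RPKM. Retn was low in every library, and its control values of 0.001, 0.156 and 0.37 RPKM include the lowest listed value (limma adjusted p = 0.0352).

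**Figure D5:**
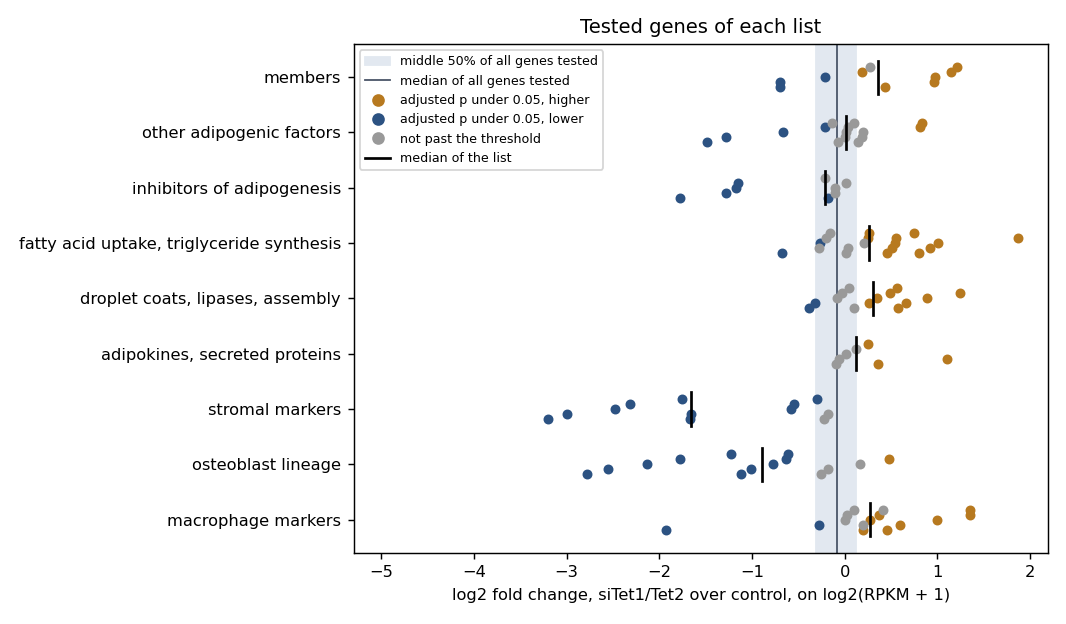
Log2 fold change on log2(RPKM + 1) of each tested gene of the 10 genes (members) and of 8 other lists, coloured by the limma call, with a black line at each list median, a grey line at the median of all genes and a band over the middle 50% of all genes. Genes of fatty acid uptake and droplets lie mostly to the right, and stromal and osteoblast genes mostly to the left.

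Markers of other cells also changed. The RNA is from bulk cultures, in which fewer cells of a type and less RNA per cell cannot be told apart. The counts of calls for these lists and for the mature adipocyte markers stand beside 29.8% lower and 14.7% higher of all genes tested. Of 12 tested markers of preadipocytes and stromal cells, 10 fell and none rose, and the list summed to 476.9 to 589.3 RPKM in the controls and 81.2 to 170.1 RPKM after the siRNAs. Most of that sum was Mgp, with 240.2 and 80.9 RPKM in the groups, and Ly6a, with 152.2 and 16.4 RPKM. Cxcl12 fell from 38.9 to 3.99 RPKM, Pdgfra from 9.92 to 0.944 RPKM and Angpt1 from 3.01 to 0.269 RPKM, whereas Lepr, Dpp4 and Thy1 were under the filter in both groups. Of 14 tested osteoblast lineage genes, 10 fell and 1 rose, and the list summed to 3660 to 4116 RPKM in the controls and 2203 to 2294 RPKM after the siRNAs. Most of that sum was Spp1, which had 2346 and 1967 RPKM in the groups and did not pass (limma adjusted p = 0.0857). The sum therefore says little about the other genes of the list. Alpl fell from 3.86 to 0.421 RPKM, and the osteocyte gene Dmp1, from 0.0227 to 0.424 RPKM, was the one called higher, but it passed the filter only through the siTet1/Tet2 group, where it is high.

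Of 15 macrophage markers, all tested, 8 rose, 2 fell and 5 did not pass. Their summed level was 8685 to 11079 RPKM in the control libraries and 16748 to 20211 RPKM in the siTet1/Tet2 libraries, so it was far above that of the stromal list in both groups, and none of the 15 was near 0, the lowest group mean being 27.8 RPKM for Fcgr1 after the siRNAs. Much of that sum was Lyz2, and without it the other 14 summed to 5138 to 6066 RPKM in the controls and 6905 to 7483 RPKM after the siRNAs. Lyz2 rose from 4439 to 11321 RPKM, Tyrobp from 465.6 to 1164 RPKM and Mertk from 50.7 to 102.3 RPKM. Fcgr1 fell from 109.1 to 27.8 RPKM and Mrc1 from 170.2 to 140.7 RPKM. Csf1r, the receptor that defines the macrophage lineage, rose from 499.5 ± 20.5 to 603.9 ± 22.4 RPKM (log2 fold change 0.27, limma adjusted p = 0.0173), and Ptprc, a general leukocyte gene, had 52.6 and 53.0 RPKM in the groups and did not pass. Relative to Csf1r in the same library, Fabp4 went from 0.554 ± 0.0463 to 1.02 ± 0.170 and Cebpa from 0.221 ± 0.000631 to 0.426 ± 0.0338, while Pparg went from 0.0651 ± 0.00101 to 0.0326 ± 0.000555 (exact permutation p = 0.1 for each, adjusted 0.117). For Plin2 the ratio was 1.76 ± 0.132 and 1.97 ± 0.210 (exact permutation p = 0.3, adjusted 0.323), and for Cebpb 0.154 ± 0.0141 and 0.145 ± 0.00432 (exact permutation p = 0.4, adjusted 0.4). These ratios depend on the marker. Over all 15 markers, the mean ratio of Fabp4 or Cebpa to the marker was higher after the siRNAs for 13, but against Tyrobp it was 0.862 times the control ratio for Fabp4 and 0.896 times for Cebpa. The ratio of Plin1 was higher against all 15, that of Plin2 against 10 and that of Cebpb against 5, and that of Pparg was lower against 14, the exception being Fcgr1. The part of the stromal and macrophage markers in the changes of the 10 genes was not tested.

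The fat cell label was checked against 10 markers of mature adipocytes, 4 of which are among the 10 genes above. Of these 10, 7 were tested, 5 rose and none fell, but their levels were uneven. Fabp4, Plin1 and Adipoq, which rose, are among the 10 genes above, so this count is not a separate check. Of the other tested markers, Cidec and Retn rose, and Lipe, with 4.41 and 4.82 RPKM in the groups, did not pass (limma adjusted p = 0.398). Lep, Slc2a4 and Pck1, which mark mature fat, did not exceed 0.121, 0.15 and 0.02 RPKM in any library, and the brown fat gene Cidea was at the lowest listed value of 0.001 RPKM in all 6. Adipoq and Plin1 did not exceed 8.92 and 3.79 RPKM in any library, while Fabp4 was at 239.9 RPKM or more in each.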

How the data were processed

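RNA-seq of total RNA was analysed for 6 libraries of mouse BMMSCs, 3 control and 3 siTet1/Tet2, grouped by their labels. Adaptor trimming, mapping to GRCm38 and abundance estimation were done by the authors in DNASTAR Lasergene. Their deposited table holds RPKM values, called FPKM in the methods. Annotation, strand use and the handling of reads matching several places are not given in the sources used here. A deposited p-value column holds the authors' own comparison and was not used. The table has 36915 rows, of which 18360 are at 0.001 in all 6 libraries. For 37 repeated symbols the most abundant row was used, and 27 date-like symbols were not named.

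Genes averaging 0.1 RPKM or more were fitted together as log2(RPKM + 1), a pseudocount of 1, with limma 3.58.1 in R 4.3.3 (lmFit, eBayes with trend, two-sided), and p-values were adjusted over all 13266 genes by the Benjamini-Hochberg method. The script was tested on simulated data. The exact permutation test over 3 against 3 libraries cannot give a p under 0.1. Ratios, lists and sequences were handled in Python 3.11.15, positions are from GENCODE M21, and promoter windows are from RefSeq.

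For the depth, the library size was sought that turns low RPKM values of single-transcript genes into whole reads. Between 51.5% and 57.2% of these values came within 0.1 of a whole number, so the depth is approximate, and count models were not used.

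The 10 genes, the lists, the tests and the alternatives were chosen with earlier results of these data known. The text names the 10 genes, the Tet genes, Lpl, Runx2, and from each list up to 3 genes per direction with the lowest adjusted p among those called, together with markers that a statement on a level rests on. Adgre1 was found under its older symbol Emr1.

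Replicate numbers are shared between groups in the labels. Deviations from the group means correlated with r = 0.149, 0.117 and 0.462 for replicates 1, 2 and 3. As each exceeded 0.1, a further fit took equal numbers as pairs. This rests on the values alone, and control replicate 1 with siTet1/Tet2 replicate 2 reached 0.332. Alternatives were pseudocounts of 0.1 and 0.01, no filter, a mean of at least 1 RPKM, TPM, median ratio and quantile scaling, eBayes without trend, gene-wise variance, the replicate block, summed duplicate rows, the ratio of group means and each library left out.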

Additional observations from a re-analysis of the deposited data

How the results depend on the processing

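None of the 10 genes changed direction in any alternative, other scalings included. Pparg, Cebpa, Cebpd, Fabp4, Plin1 and Adipoq kept their calls in all 17 alternatives of the limma fit, while Cebpb lost its call in 9, with adjusted p up to 0.226, Plin2 in 5 and Zfp423 in 2 of the 16 that kept it. With the replicate block, 3 of the 10 were lower and 6 higher, as in the fit without it, and 12 genes of the other adipogenic lists were lower and 24 higher. Among all genes, 4468 were lower and 2248 higher with the block, against 3952 and 1953 without it. The block changed no call among the 10 genes. The count of altered and higher genes among the 10 was 2 and became 4 with pseudocounts of 0.1 or 0.01 and the ratio of group means, where the pseudocount of 1 no longer shrinks Plin1 and Adipoq under a fold of 2. It also became 4 with TPM, median ratio scaling and quantile normalization, where the cause was not tested. The share of all genes altered was not counted in any alternative, so counts of altered genes there are not read as a result about the 10 genes. The count altered and lower was 0 and became 1, Zfp423, with a pseudocount of 0.01 (log2 fold change -1.47) and with the ratio of group means. Leaving out 1 library at a time gave 4 to 6 of the 10 higher, 2 to 3 lower, 2 to 4 altered and higher and 0 altered and lower. For the other adipogenic lists it gave 21 to 24 higher and 8 to 12 lower, and for all genes 1403 to 2021 higher and 3016 to 4142 lower. Median ratio scaling and quantile normalization each gave 8 lower in the other lists, against 13. Over all genes, 3952 were lower and 1953 higher in the fit without rescaling, and 3106 and 2697 with median ratio scaling. Without a filter these were 2514 and 1230, with more genes in the adjustment, and with quantile normalization 2635 and 3598, and the median over all genes moved on the log2 scale from -0.09 to 0.06, for which the cause was not tested. Depth limits Zfp423 and Cfd most, as their values rest on few reads.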
